A study of Mus musculus with 8 samples.

Results

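The 35 genes described here encode enzymes of cholesterol and fatty acid synthesis together with the factors that control them, a carrier that moves sterols and a pair of transporters that export them. A gene was taken where a probe set carried its symbol and no other. Where several did, the one with the highest mean over the 8 arrays was used. Of the 35, 33 had such a probe set, among 12393 genes in all, and 32 passed the filter on low values, among 8003. Acat2 and Insig1 had none and were not analysed here. Acaca, the first committed enzyme of fatty acid synthesis, lay under the filter, between 6.30 and 6.57 on all arrays, and was not tested.

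The cells were activated CD8 cytotoxic T cells of OT-1 mice, whose T cell receptor is a transgene that recognises a peptide of ovalbumin. They spent 4 h with cells of ID8, a mouse ovarian cancer line loaded with the OVA peptide, at an effector-to-target ratio of 30, and were then recovered by magnetic separation. The cells of each of 4 animals, called mouse A to mouse D, were split between ID8 made to overexpress PD-L1 and ID8 depleted of it, which gave 4 arrays with each target and 2 arrays for each mouse. PD-L1, which binds the inhibitory receptor PD-1, was altered in the ID8 cells and not in the T cells. The age and sex of the mice were not given in the sources used here, and no array of T cells without targets was analysed here.

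Cholesterol is built from acetyl-CoA by way of mevalonate, farnesyl diphosphate, squalene and lanosterol, and most enzymes of this route are transcribed under SREBP-2, the product of Srebf2. When sterols are plentiful, INSIG proteins hold SREBP and its escort SCAP in the endoplasmic reticulum, and oxysterols turn on the exporters Abca1 and Abcg1 through LXR receptors. SREBP-1, the product of Srebf1, acts mainly on fatty acid synthesis and desaturation, and activated T cells use both routes to build membrane as they grow and divide.

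Levels are the deposited log2 expression values, and a difference of 1 on this scale is a 2-fold difference. Array signals of different genes are not on a common scale, so each gene was compared only with itself. The markers of CD8 T cells were high on all arrays: the mean over the 8 listed, among them Cd3e and Cd8a, lay between 12.38 and 12.48. Of the markers of macrophages and dendritic cells 3 of 7 were tested (Csf1r, Cd68 and Flt3), and their mean lay between 7.84 and 8.21. Of those of CD4 and regulatory T cells 2 of 4 were tested (Cd4 and Zbtb7b), with a mean between 8.31 and 8.54. Markers of NK cells, neutrophils, erythroid cells and platelets all lay at or under 6.26, below the filter of 6.87. Of the 7 B cell markers only Ighm, the heavy chain of IgM, was tested, and it stood at 10.21 and 10.26 in mouse A and between 10.71 and 11.07 in the others. The mean of 13 tested markers of ID8 cells, of 20 listed, lay between 7.91 and 8.96. All values come from bulk RNA, in which fewer cells that express a gene and less of its RNA per cell cannot be told apart.

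The first comparison asked whether the synthesis genes differ between animals. Mouse A stood apart: it had the lowest mean of the 4 mice for 29 of the 32 tested members, where 27% of all tested genes had their lowest mean there. Both of its arrays lay under all 6 arrays of the other mice for 23 members, against 13.9% of all genes. In the moderated F test of limma, fitted with a term for the target, 25 of 32 members (78.1%) differed between mice at an adjusted p under 0.05, against 29.3% of all genes. The highest and lowest mouse means lay 0.50 apart for the median member and 0.19 apart for the median gene. The median share of a member's variance was 94.9% for mice, 0.467% for targets and 3.28% for the remainder. Over all genes the medians were 73.8%, 2.83% and 18.6%. Each median was taken on its own, so they need not add to the whole. Mice take up more degrees of freedom than targets, so a larger share falls to them even without a difference. The 2 arrays of a mouse come from the same T cells, so these p-values set the spread between animals against that between co-cultures from one animal. An animal and the activation and handling of its T cells cannot be told apart here, so a difference between mice is also one between preparations.

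**Figure D1:**
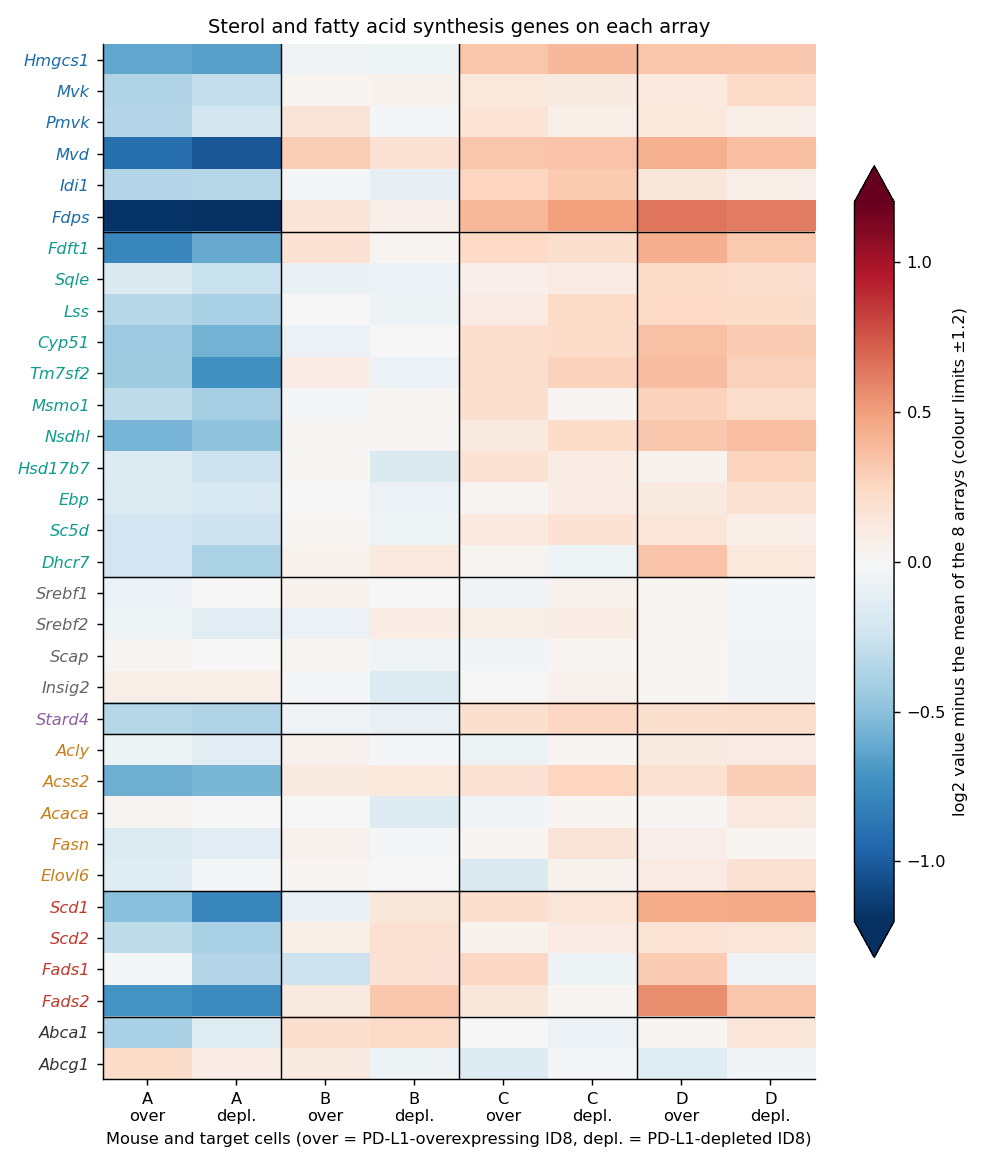
Deposited log2 value of each of the 33 measured genes on each array, minus the gene's mean over the 8 arrays. Columns are mice A to D, each with its PD-L1-overexpressing co-culture left of its PD-L1-depleted one, rows are genes grouped by role, and colours end at 1.2 in either direction. Both columns of mouse A are blue (low) for most enzymes, while the rows of the regulators Srebf1, Srebf2, Scap and Insig2 are pale throughout.

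Set against the mean of the other mice, 25 members were lower in mouse A (78.1%, against 12.7% of all genes) and 1 was higher (Abcg1, against 18.1% of all genes). Their roles divided them. All 6 tested enzymes of the mevalonate steps were lower, as were all 11 of the squalene and sterol steps and the sterol carrier Stard4. Acss2 passed the filter only through the other mice, in which it is high. The filter thus favoured a lower call in mouse A, and the call is read as a value alone. Leaving it out, 24 of 31 members (77.4%) were lower in mouse A, 24 of 31 passed the F test and 22 of 31 did not overlap. The lowest mouse mean was then in mouse A for 28 of 31. Of the fatty acid genes, 3 of 4 in acetyl-CoA supply and chain building, Acss2 among them, and 3 of 4 desaturases were lower, and of the exporters Abca1 was lower. None of the 4 tested regulators passed in either direction. The median difference was -0.42 over the members and 0.02 over all genes.

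Among the mevalonate enzymes, Fdps makes farnesyl diphosphate, from which both sterols and protein prenyl groups come. In mouse A its level was 10.62 after PD-L1-overexpressing and 10.61 after PD-L1-depleted targets, against 11.96 and 11.87 in B, 12.20 and 12.30 in C, and 12.45 and 12.41 in D. The arrays of mouse A were far below all others, and those of mouse D were the highest. The difference of -1.58 (SE 0.0376, limma adjusted p = 9.58e-09) is a level 2.99-fold higher in the other mice, and Fdps ranked 11 of 8003 in the F test. Mvd, which makes isopentenyl diphosphate, had 8.30 and 8.18 in mouse A, in the same order of targets, against 9.50 and 9.37 in B, 9.54 and 9.54 in C, and 9.63 and 9.56 in D. Its values in the other mice lay close together, well above both arrays of mouse A (difference -1.28, SE 0.0466, limma adjusted p = 1.89e-07).

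Hmgcs1, the HMG-CoA synthase that feeds the pathway, followed a graded order. It had 11.47 and 11.44 in mouse A, against 12.05 and 12.04 in B, 12.42 and 12.48 in C, and 12.42 and 12.41 in D, each pair again in that order. Mouse A was lowest, B lay between, and C and D were highest and near each other. The difference of mouse A from the others was -0.85 (SE 0.0286, limma adjusted p = 1.26e-07). Idi1, which interconverts the isoprenoid building blocks, had 10.21 and 10.22 in mouse A, 10.55 and 10.47 in B, 10.82 and 10.88 in C, and 10.70 and 10.64 in D. Mouse A was again lowest, and here both arrays of mouse C lay above all others. Its difference in mouse A was -0.47 (SE 0.0396, limma adjusted p = 4.18e-05). The kinases Mvk and Pmvk differed less, by -0.43 and -0.38.

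In the squalene and sterol steps the differences of mouse A ran from -0.92 in Fdft1 to -0.23 in Ebp. Fdft1, squalene synthase, opens the branch that leads only to sterols, and it had 9.08 and 9.26 in mouse A, against 10.04 and 9.90 in B, 10.10 and 10.05 in C, and 10.30 and 10.17 in D. The groups did not overlap (difference -0.92, SE 0.0619, limma adjusted p = 9.75e-06). Nsdhl, a dehydrogenase that helps remove methyl groups from the sterol ring, had 8.67 and 8.74 in mouse A, 9.24 and 9.24 in B, 9.33 and 9.44 in C, and 9.55 and 9.59 in D. Both its arrays of mouse D lay above all others, as both of mouse A lay below (difference of A -0.69, SE 0.0445, limma adjusted p = 7.42e-06).

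Cyp51, the lanosterol demethylase, had 9.09 and 8.96 in mouse A, 9.46 and 9.52 in B, 9.73 and 9.75 in C, and 9.88 and 9.84 in D. The mice stood in the same order as for Nsdhl, and mouse A differed by -0.67 (SE 0.0488, limma adjusted p = 1.62e-05). Msmo1, the sterol methyl oxidase, had 10.03 and 9.93 in mouse A and 10.31 to 10.61 in the others, a difference of -0.47 (SE 0.0443, limma adjusted p = 8.70e-05). The other members of this group were Tm7sf2 (-0.77), Lss (-0.49), Dhcr7 (-0.40), Sc5d (-0.32), Sqle (-0.30) and Hsd17b7 (-0.27). Of these, Hsd17b7 had an array of mouse B inside the range of mouse A, while the other 5 did not overlap.

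Stard4, a soluble carrier that moves cholesterol between membranes, had 10.53 and 10.50 in mouse A, 10.82 and 10.78 in B, 11.06 and 11.11 in C, and 11.06 and 11.08 in D. Both arrays of mouse A were lowest and those of C and D lay close together. Mouse A differed by -0.47 (SE 0.035, limma adjusted p = 1.78e-05).

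**Figure D2:**
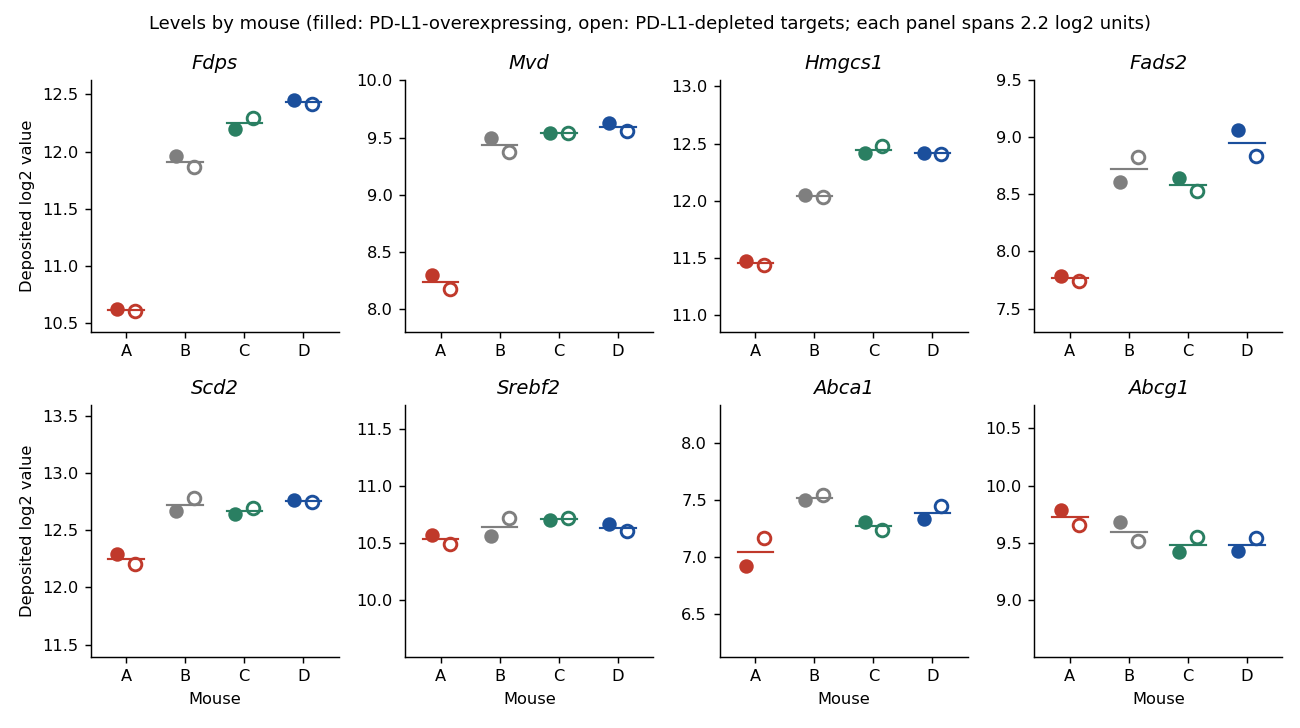
Deposited log2 value of 8 genes by mouse, with filled points for PD-L1-overexpressing targets, open points for PD-L1-depleted ones and a line at the mean of the pair. Each panel spans 2.2 log2 units. Mouse A lies lowest for Fdps, Mvd, Hmgcs1, Fads2, Scd2 and Abca1, the mice lie close together for Srebf2, and the points of a pair lie close to each other in every panel compared with the gap between mouse A and the others in Fdps.

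The start regions of a few of these genes are shown because the members moved together and because SREBP is known to act with NF-Y, which reads the letters CCAAT. They are the 250 bases before the annotated start, in the gene's own direction, from RefSeq on GRCm38.p6. Hmgcs1 is at chr13:119690101-119690350 on the plus strand, Mvd at chr8:122443423-122443672 on the minus strand, Nsdhl at chrX:72918271-72918520 on the plus strand and Cyp51 at chr5:4104698-4104947 on the minus strand. Fads2, at chr19:10101504-10101753 on the minus strand, is shown as a member that was lower in mouse A without a match. Srebf2, at chr15:82147019-82147268 on the plus strand, is shown as a regulator that was not called. Capitals mark CCAAT or its reverse complement ATTGG, and in Hmgcs1 also TCACNCCAC, the sterol response element of the low density lipoprotein receptor type.
Hmgcs1: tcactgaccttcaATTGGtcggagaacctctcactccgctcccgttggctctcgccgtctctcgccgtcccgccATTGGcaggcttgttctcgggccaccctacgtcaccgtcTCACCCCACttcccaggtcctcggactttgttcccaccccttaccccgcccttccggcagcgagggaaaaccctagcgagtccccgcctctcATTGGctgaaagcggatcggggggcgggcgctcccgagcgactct
Mvd: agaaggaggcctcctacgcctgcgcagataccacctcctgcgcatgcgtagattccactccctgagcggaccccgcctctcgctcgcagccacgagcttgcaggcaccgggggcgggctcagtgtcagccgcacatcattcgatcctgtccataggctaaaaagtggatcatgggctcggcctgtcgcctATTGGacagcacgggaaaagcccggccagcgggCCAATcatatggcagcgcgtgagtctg
Nsdhl: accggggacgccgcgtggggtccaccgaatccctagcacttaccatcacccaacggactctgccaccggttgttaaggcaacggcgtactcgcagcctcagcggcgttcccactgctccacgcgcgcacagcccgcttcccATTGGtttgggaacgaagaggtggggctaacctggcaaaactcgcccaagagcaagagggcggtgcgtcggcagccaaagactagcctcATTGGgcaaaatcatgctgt
Cyp51: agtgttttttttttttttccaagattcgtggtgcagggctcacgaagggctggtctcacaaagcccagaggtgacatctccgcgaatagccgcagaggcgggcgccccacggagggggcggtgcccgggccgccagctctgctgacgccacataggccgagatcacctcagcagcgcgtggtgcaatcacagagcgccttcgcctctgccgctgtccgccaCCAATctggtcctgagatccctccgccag
Fads2: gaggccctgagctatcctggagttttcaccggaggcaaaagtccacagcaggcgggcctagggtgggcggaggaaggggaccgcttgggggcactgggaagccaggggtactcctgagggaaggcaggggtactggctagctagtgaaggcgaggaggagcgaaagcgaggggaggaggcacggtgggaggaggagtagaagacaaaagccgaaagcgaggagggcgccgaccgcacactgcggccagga
Srebf2: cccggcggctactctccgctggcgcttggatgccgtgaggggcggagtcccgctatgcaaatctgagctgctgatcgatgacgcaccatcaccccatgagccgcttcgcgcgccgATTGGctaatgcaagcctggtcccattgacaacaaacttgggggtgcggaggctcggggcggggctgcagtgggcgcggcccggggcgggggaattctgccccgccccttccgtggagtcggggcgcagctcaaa

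Hmgcs1 held 3 CCAAT matches and the only match to TCACNCCAC, which ended 129 bases before the start. Mvd and Nsdhl held 2 CCAAT matches each and Cyp51 and Srebf2 held 1 each. Of 27 members with a start region in the RefSeq table, 20 (74.1%) held CCAAT on either strand, against 37.5% of 27025 genes. Fdps, Fdft1, Sqle, Stard4, Scd1, Scd2, Fads1 and Abcg1 had no start region there. The count was 16 of 19 (84.2%) among members lower in mouse A and 3 of 6 (50%) among those measured and not called lower. The latter include Acaca, which was not tested. TCACNCCAC was in 1 of 27 (1.22% of all genes), the E-box CACGTG in 6 of 27 (6.86% of all genes) and the direct repeat that LXR reads in 0 of 27 (0.0259% of all genes). Of the 27 members 5 had several starts, which gave 35 windows, against 32851 windows over the 27025 genes. A member counted where any of its windows held the motif. Both strands were searched and matches of different motifs did not overlap in the members. The windows of members were richer in G and C (median 62.8%) than all windows (52.4%). These are matches of letters, not measured binding.

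Among the fatty acid genes, Acss2, which makes acetyl-CoA from acetate, had 6.77 and 6.82 in mouse A, against 7.47 and 7.49 in B, 7.53 and 7.62 in C, and 7.55 and 7.65 in D. Both arrays of mouse A lay just under the filter and all others above it. The difference was -0.76, and since the gene passed the filter through the other mice it is given as a description. Fasn, the fatty acid synthase itself, had 10.50 and 10.52 in mouse A and 10.64 to 10.81 in the others. It did not overlap, though the difference of -0.20 (SE 0.0444, limma adjusted p = 0.00971) was small. Acly, which makes cytosolic acetyl-CoA from citrate, had 11.45 and 11.38 in mouse A and 11.45 to 11.63 in the others, so its ranges touched (difference -0.13, SE 0.0375, limma adjusted p = 0.0252). Elovl6, an elongase, did not pass, with 8.21 and 8.33 in mouse A and 8.19 to 8.54 in the others.

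The desaturases spread more widely. Fads2, the delta-6 desaturase of polyunsaturated fatty acids, had 7.79 and 7.74 in mouse A, against 8.61 and 8.83 in B, 8.64 and 8.53 in C, and 9.06 and 8.84 in D. Mouse A lay below all others by a wide gap (difference -0.98, SE 0.0783, limma adjusted p = 2.66e-05). Scd1 and Scd2 are stearoyl-CoA desaturases that make monounsaturated fatty acids. Scd1 had 8.12 and 7.84 in mouse A and 8.52 to 9.07 in the others (difference -0.85, SE 0.0843, limma adjusted p = 0.000109). Scd2 had 12.29 and 12.21 in mouse A and 12.64 to 12.78 in the others (difference -0.47, SE 0.0365, limma adjusted p = 2.42e-05). Neither overlapped. Fads1, the delta-5 desaturase, had 8.32 and 7.99 in mouse A and 8.10 to 8.65 in the others, and did not pass (difference -0.25, 95% interval -0.55 to 0.055).

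The regulators lay close together in all mice. Srebf2 had 10.58 and 10.50 in mouse A, 10.56 and 10.72 in B, 10.70 and 10.72 in C, and 10.67 and 10.60 in D. An array of mouse B fell among those of mouse A, and the difference was -0.13 (SE 0.0493, limma adjusted p = 0.0851, 95% interval -0.24 to -0.01). Srebf1 had 10.22 and 10.30 in mouse A and 10.26 to 10.35 in the others (95% interval of the difference -0.14 to 0.05). Scap had 10.63 and 10.62 in mouse A and 10.58 to 10.65 in the others (95% interval -0.07 to 0.10). Insig2 had 9.84 and 9.85 in mouse A and 9.61 to 9.82 in the others, so both arrays of mouse A lay above the rest, the only member for which they did (22.3% of all genes), but the difference of 0.10 did not pass (95% interval -0.01 to 0.21). These intervals do not show that the regulators were equal between mice, and the arrays do not measure SREBP processing.

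The fitted differences of the exporters had opposite signs. Abca1, which loads cholesterol onto apolipoprotein A-I, had 6.92 and 7.16 in mouse A, against 7.50 and 7.54 in B, 7.31 and 7.24 in C, and 7.33 and 7.45 in D. Mouse A was lowest and mouse B highest, and the difference of A was -0.35 (SE 0.0778, limma adjusted p = 0.00872). Abcg1, which exports cholesterol to HDL particles, had 9.79 and 9.66 in mouse A, 9.68 and 9.51 in B, 9.42 and 9.55 in C, and 9.43 and 9.54 in D. Mice A and B overlapped, and the difference of 0.20 (SE 0.0654, limma adjusted p = 0.0446) was the only one above 0 to pass. The call was lost in 9 of 21 alternatives. Among them were no filter, quantile normalisation and eBayes without a trend (limma adjusted p = 0.0559, 0.0796 and 0.0841). The others left out mouse C, mouse D, either array of mouse A, or the PD-L1-overexpressing array of C or D.

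**Figure D3:**
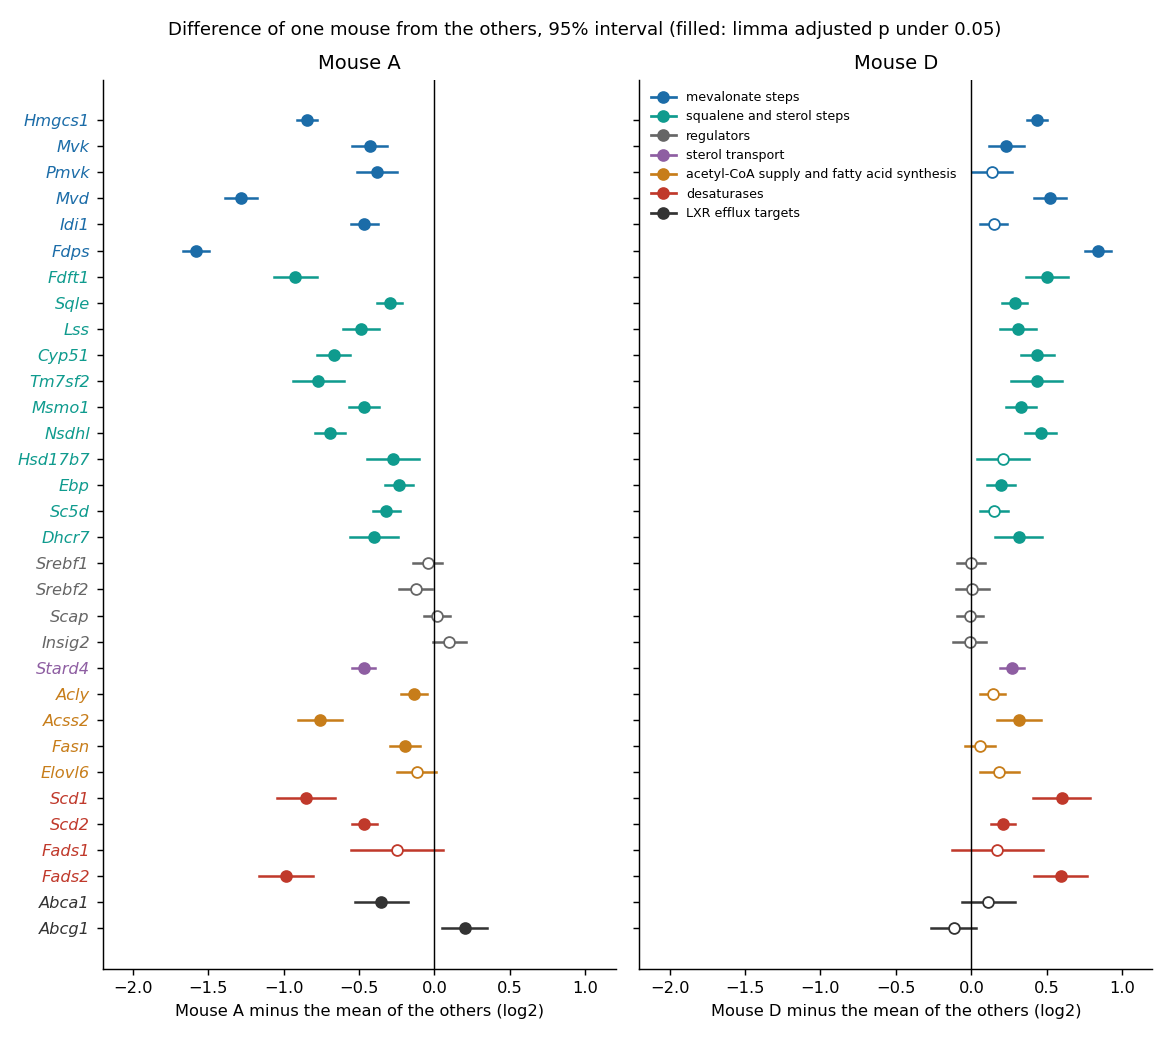
Difference of mouse A (left) and mouse D (right) from the mean of the other 3 mice for the 32 tested genes, in log2 units. Points are fitted differences, bars are 95% intervals, filled points passed at a limma adjusted p under 0.05, and colours mark the roles. In mouse A the difference reached -1.58 in Fdps and 25 filled points lie left of 0, 1 of them Acss2, which passed the filter only through the other mice, while in mouse D 18 filled points lie right of 0.

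Most calls in mouse A held when an array or another mouse was left out. Over 21 alternatives, including leaving out each array and each other mouse, the number of members lower in mouse A ran from 20 to 27, counting Acss2 where tested. Of the 25, 18 passed in every one in which they were tested, or 17 of 24 leaving Acss2 out. The other 7 were Hsd17b7, Ebp, Sc5d, Dhcr7, Acly, Fasn and Abca1. For 20 members the arrays carry several probe sets of the gene. All 21 further probe sets at or above the filter, of 16 genes, had the same sign in mouse A as the one chosen. The 11 further probe sets under the filter went either way, by at most 0.33. Both others of Abca1 were among them, at 0.11 and 0.02, opposite in sign to the one chosen. Beside these values, Ighm was lower in mouse A, as given above, as were 4 of the 8 CD8 T cell markers (Cd3d, Cd3g, Cd247 and Cd8a), while 1 (Cd2) was higher, against 12.7% and 18.1% of all genes. The mean of these markers was 12.39 in mouse A and 12.47 in each of the others. Of the tested macrophage and dendritic cell markers Cd68 was lower in mouse A, and their mean was 7.84 and 7.99 in A, against 7.97 and 7.87 in B, 8.17 and 8.21 in C, and 7.97 and 8.04 in D, so mice A and B overlapped. None of the 2 tested CD4 and regulatory T cell markers was called in mouse A. The ID8 marker mean was 8.24 in mouse A, against 8.37, 8.69 and 8.58 in B, C and D, and with it as a covariate 26 members were lower in mouse A. Of the 13 tested ID8 markers 2 were lower in mouse A (Krt8 and Cav1) and 1 was higher (Cd9). The mean of 18 tested cell cycle genes was 10.68 in mouse A, against 10.53, 10.73 and 10.69 in B, C and D. Of these, 4 were higher in mouse A (Mcm3, Mcm6, Mcm7 and Pcna) and 0 lower, against 18.1% and 12.7% of all genes. The part of these marker and cell cycle differences in the result was not tested.

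The other mice also differed among themselves, in a smaller set of members. Against the mean of the others, 18 members were higher in mouse D (56.2%, against 4.56% of all genes) and 12 in mouse C (37.5%, against 3.09%), with 0 lower in either (4.09% and 5.35% of all genes). Without Acss2 the counts were 17 of 31 and 11 of 31. Those means include mouse A, and without it 6 members were higher in D (1.04% of all genes) and 2 in C (1.31%). Without its own PD-L1-overexpressing or PD-L1-depleted array, mouse D had 5 or 7 members higher (0.75% or 0.787% of all genes) and mouse C 5 or 4 (0.587% or 0.537%). The count in mouse C was also 6 without either array of mouse D (1.26% of all genes each time) and 19 without that mouse (3.37%). It was 17 without the PD-L1-overexpressing array of mouse B (8.41% of all genes), 19 without its PD-L1-depleted array (6.52%) and 20 without mouse B (7.92%). Each time the share of all genes moved in the same direction as the count of members, though not in proportion. In mouse C, 19 members came with 3.37% of all genes and 17 with 8.41%.

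Pairs of mice leave the other animals out. Both arrays of mouse D lay above all 6 others for 14 members (7.45% of all genes). In the pairs, mouse A was lower than B in 21 members (65.6%, against 10.5% of all genes), lower than C in 23 (71.9%, against 9.18%) and lower than D in 26 (81.2%, against 11.3%). Leaving Acss2 out, the counts were 20, 22 and 25 of 31. No member was higher in A than in B, C or D (11.1%, 16% and 14.1% of all genes). Mouse D was higher than B in 7 members (21.9%, against 1.24% of all genes), namely Hmgcs1, Fdps, Sqle, Cyp51, Msmo1, Nsdhl and Stard4. Mouse C was higher than B in 5 (15.6%, against 2.71% of all genes), namely Hmgcs1, Idi1, Fdps, Cyp51 and Stard4. None was lower in D or C than in B (2.71% and 5.62% of all genes).

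These counts against mouse B turned on single arrays. For D the count was 2 without either array of D (0.0875% of all genes each time), 13 without the PD-L1-overexpressing array of B (8.05%) and 10 without its PD-L1-depleted array (3.17%). For C it was 4 without its PD-L1-overexpressing array (0.612% of all genes) and 2 without its PD-L1-depleted one (0.412%). It was 8, with 2 others lower, without the PD-L1-overexpressing array of B (9.67% of all genes higher and 13% lower), and 9 without the PD-L1-depleted one (3.9% higher). Fdps and Hmgcs1 were called in both comparisons with every array or other mouse left out.

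Fdps was 0.52 higher in D than in B and 0.33 higher in C than in B, and Hmgcs1 was 0.37 and 0.41 higher. Between D and C no member passed (2.06% of all genes were higher in D and 1.16% lower), with 95% intervals that reached from -0.34 in Fads1 to 0.58 in Fads2. Without mouse B, or either of its arrays, Dhcr7, Fads2, Fdps, Nsdhl and Scd1 were higher in D than in C and Idi1 was lower, against 5.61% to 5.66% and 3.16% to 3.22% of all genes. The order of the mouse means for Fdps was therefore A, B, C and D. C and D were not separated for Fdps in the fit reported, and were where mouse B or an array of it was left out. Some alternatives that kept mouse B also called members between D and C, as counted under the processing. Against the mean of the others mouse B was higher in 3 members (6.3% of all genes) and lower in 0 (2.96%). They were Mvd (0.31), Scd2 (0.16) and Fdps (0.15). Without mouse A in that mean, 0 members were higher in mouse B (4.64% of all genes) and 9 were lower (2.2% of all genes), and Mvd was at -0.13. Fdps turned from a call above 0 to one below it, at -0.43 (limma adjusted p = 0.000892). Without mouse A altogether, 9 of 32 members passed the F test, against 7.2% of all genes. They were Hmgcs1, Fdps, Stard4, Idi1, Sqle, Cyp51, Nsdhl, Scd1 and Fdft1, the same genes that were lower in mouse B, and none of them is a regulator or an exporter.

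**Figure D4:**
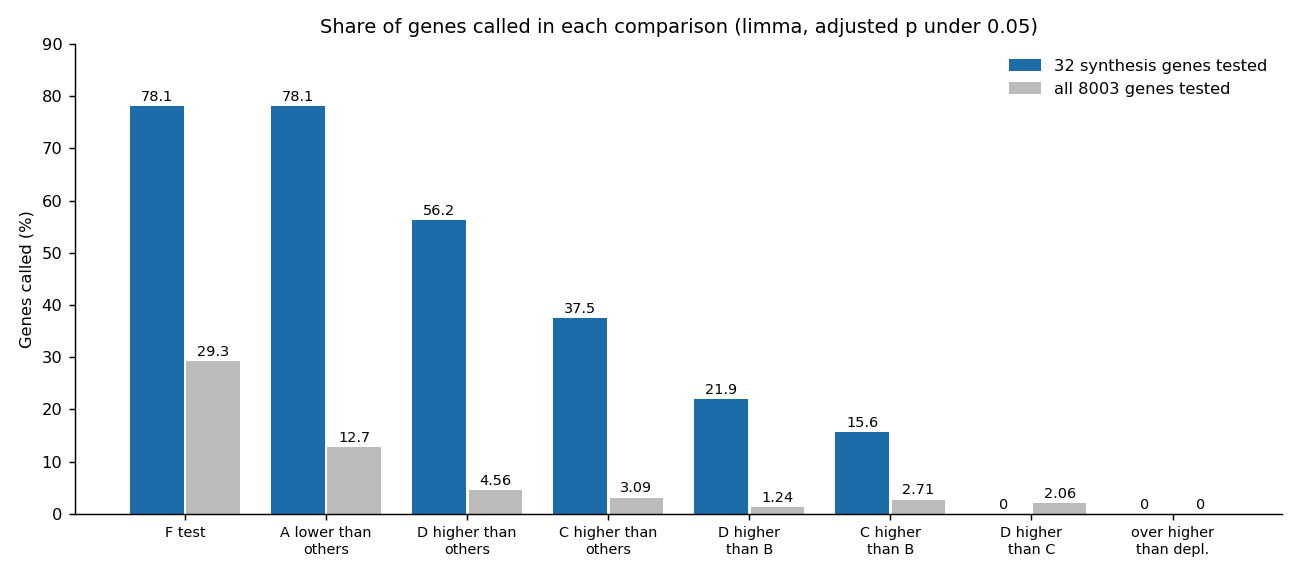
Share of genes called in each comparison at a limma adjusted p under 0.05, in percent, for the 32 tested synthesis genes (blue) and all 8003 tested genes (grey). The share of synthesis genes is 78.1% for lower in mouse A and 56.2% for higher in mouse D, against 12.7% and 4.56% of all genes, and 0 for both bars between the targets.

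The second comparison, which the study was built on, set T cells after PD-L1-overexpressing targets against T cells of the same mice after PD-L1-depleted targets. No member passed in either direction with limma and the mouse as a block (0 of 32, against 0% of all genes), and the adjusted p was 0.9995 for all of them. At an unadjusted p under 0.05 the count was also 0 of 32, against 2.85% of all genes. Of the fitted differences, 19 lay above 0 and 13 below, with a median of 0.0186, against 0.0033 over all genes. The 95% intervals of all 32 lay inside a 1.5-fold change and those of 30 inside a 1.2-fold change. The outermost bounds were -0.24 for Abca1 and 0.40 for Fads1.

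Fdps averaged 11.81 ± 0.81 after PD-L1-overexpressing targets and 11.80 ± 0.83 after PD-L1-depleted ones (SD, n = 4 each), and Hmgcs1 averaged 12.09 ± 0.45 and 12.09 ± 0.48 in the same order. These SDs hold the spread between mice, which the paired fit removes. The 95% interval of the difference was -0.06 to 0.08 in Fdps and -0.06 to 0.06 in Hmgcs1. Srebf2 averaged 10.63 ± 0.07 after PD-L1-overexpressing targets and 10.63 ± 0.11 after PD-L1-depleted ones (SD, n = 4 each), with an interval of -0.11 to 0.09.

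The members with the smallest p above 0 were Msmo1 (0.08, SE 0.0384), Mvd (0.08, SE 0.0403), Tm7sf2 (0.12, SE 0.0654) and Dhcr7 (0.09, SE 0.0602). By mouse, from A to D, Msmo1 differed by 0.10, -0.03, 0.17 and 0.07, and Mvd by 0.12, 0.12, -0.01 and 0.07. Those below 0 were Elovl6 (-0.10, SE 0.0505), Nsdhl (-0.06, SE 0.0385), Abca1 (-0.08, SE 0.0674) and Acss2 (-0.06, SE 0.0561). By mouse, from A to D, Elovl6 differed by -0.12, 0.01, -0.21 and -0.08, and Nsdhl by -0.07, -0.004, -0.11 and -0.04. Only Nsdhl and Acss2, of the 32, kept one sign in all 4 mice (6.25%, against 10.5% of all genes). The share is near that of all genes and is not read as a trait of the members.

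Fads1 had the widest spread. From mouse A to D it had 8.32, 8.10, 8.59 and 8.65 in PD-L1-overexpressing co-cultures, and 7.99, 8.52, 8.28 and 8.30 in PD-L1-depleted ones. In A, C and D it stood higher after PD-L1-overexpressing targets, by 0.33, 0.31 and 0.35, and lower in B, by -0.42 (mean 0.14, SE 0.116). The ID8 marker mean moved in the same way, by 0.64 in A, 0.53 in C, 0.59 in D and -0.92 in B. Without mouse B, Fads1 was the only member called, with a difference of 0.33 (SE 0.0514, limma adjusted p = 0.000585), against 2.2% of all genes. With the ID8 marker mean as a covariate over all mice, its difference was 0.04 (SE 0.0471, limma adjusted p = 0.938). Fads1, Fads2, Msmo1, Dhcr7 and Elovl6 had a sign in mouse B opposite to that in the other mice, 5 of 32 or 15.6%, against 22.4% of all genes. How much RNA of ID8 cells the arrays hold was not measured apart from these markers.

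**Figure D5:**
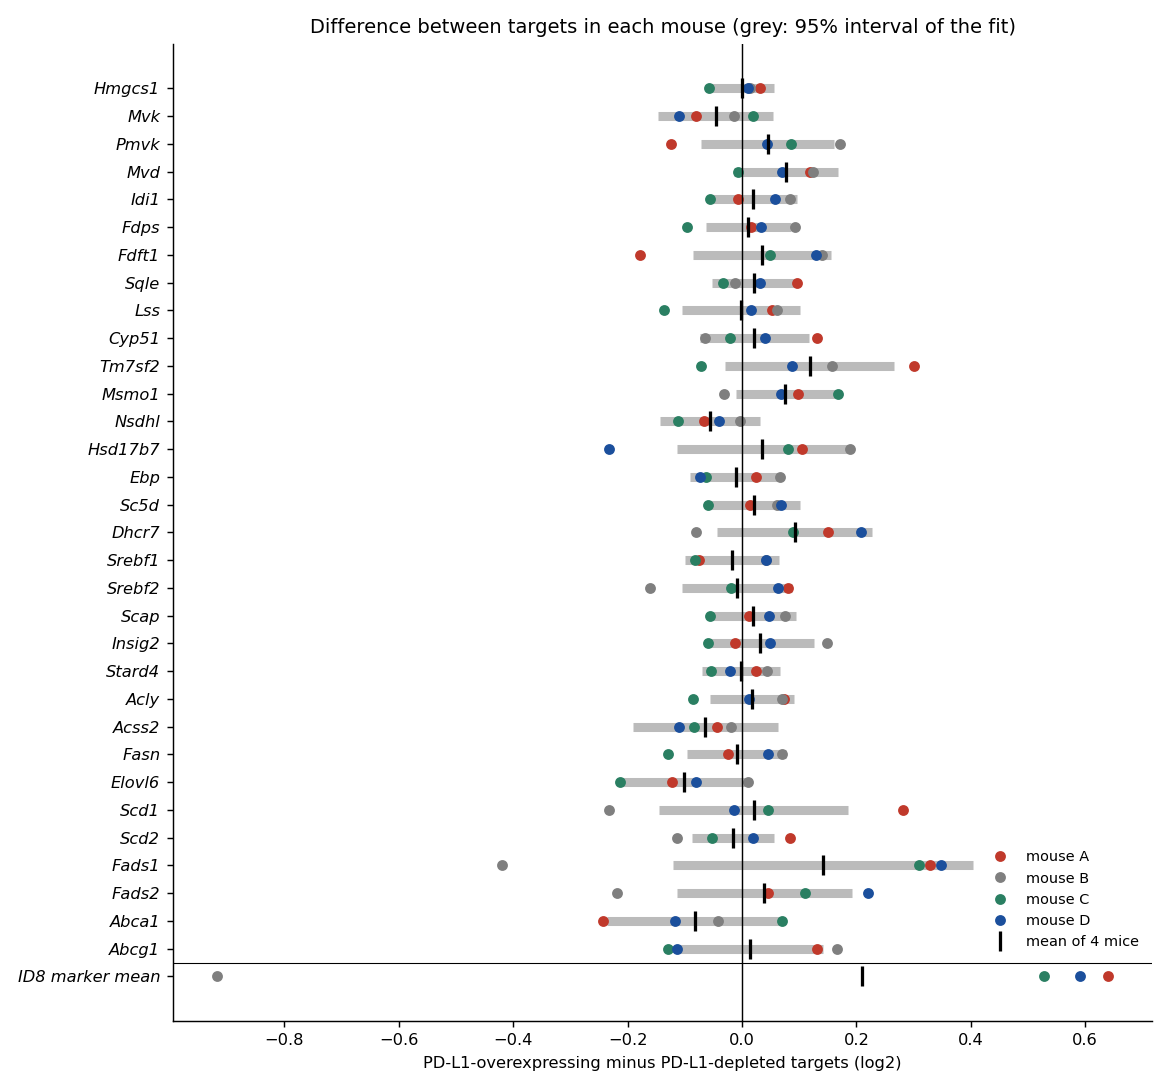
Difference in each mouse, PD-L1-overexpressing minus PD-L1-depleted, in log2 units, for the 32 tested genes and, in the lowest row, the mean of the ID8 markers. Coloured points are mice, the black tick is their mean and the grey bar is the 95% interval of the fit. Most points lie near 0, while Fads1 has mouse B at -0.42 and the others between 0.31 and 0.35, and the ID8 marker mean has mouse B at -0.92 and the others between 0.53 and 0.64.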

How the data were processed

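Each of the 8 co-cultures was read on its own 3' expression array. Per probe set, the deposited file gives 1 log2 expression value, between 3.60 and 15.24. That the scale is log2 was judged from the values, while the authors' summary and normalisation methods are not given in the sources used here. Once sorted, values of the same rank differed by at most 0.167 between arrays, so a shift common to most genes would not be seen. The number of arrays limits the precision.

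Of 22690 probe sets, 64 controls were left out, 20380 had 1 symbol in the platform annotation, 691 several and 1555 none. For each gene the probe set of highest mean was used, and 4390 genes whose mean lay below 6.87, the 40th percentile over probe sets, were set aside. The tests used lmFit and trended eBayes of limma 3.58.1 (R 4.3.3), two-sided, adjusted by Benjamini-Hochberg over all 8003 genes at 0.05. Mouse was a fixed block between targets, from the series design and the titles. Deviations of a mouse's 2 arrays from the group means correlated at 0.82, 0.16, 0.61 and 0.64 for A to D. The members, roles, marker lists and tests were chosen with earlier results of these data known. Described in full were the members with the 12 smallest p in the F test, the 4 of smallest p on either side of 0 between targets, the regulators, the exporters and the fatty acid genes, and, of a list of other pathway genes, the 4 with the smallest p in the F test. Other members are given by range and count. Alternatives were normalisation, filter, probe set choice, eBayes settings, array weights, an ID8 marker covariate, block settings and leaving out mice or arrays. The steps were tested on simulated data. The table held 0 columns of other samples.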

Additional observations from a re-analysis of the deposited data

Results flagged for a closer look

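Of 66 groups of 4 arrays (33 genes with each target), 6 had an array far from the other 3 of the same target. Independent groups would give about 3.3, or 1 group in 20. These groups share the same 4 mice and many of the genes moved together, so that number does not test the 6. In all 6 it was the array of mouse A, and in all 6 it was the lowest. The values are the gap to the nearest array divided by the range of the group. In PD-L1-overexpressing co-cultures the value was 0.931 for Pmvk, 0.901 for Mvd, 0.904 for Acss2 and 0.833 for Fasn. Acss2 passed the filter only through the other mice and is read as a value alone. In PD-L1-depleted co-cultures it was 0.865 for Mvd and 0.855 for Scd2. Mvd was the one gene to stand out with both targets.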

How the results depend on the processing

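The comparison of targets called 0 members with no replicate block and 0 with the mouse as a random replicate block, as with the fixed block, and 0 to 1 when a mouse was left out, the 1 being Fads1 without mouse B. Members lower in mouse A, counting Acss2 where tested, numbered 20 to 27 with an array or mouse left out and 21 to 26 otherwise. Leaving out an array or mouse gave 9 to 30 members in the F test, 0 to 2 higher in A, 1 to 9 called in B, 2 to 20 in C, 5 to 26 higher in D, 2 to 10 for C against B, 2 to 13 for D against B, 0 to 6 for D against C and 9 to 30 called in any pair. The lowest of these came without mouse A for the F test, and calls in D fell to 5 without its PD-L1-overexpressing array and to 7 without its PD-L1-depleted array, as those in C fell to 5 and 4. With 1 array left, a mouse is assumed to vary like the others. Abcg1 was no longer called in mouse A (0 members) with no filter, quantile normalisation or eBayes without a trend. Nor was it called without mouse C or D, without either array of A, or without the PD-L1-overexpressing array of C or D. Calls in mouse B numbered 3 and became 7 with the ID8 covariate, 5 with median centring, no target term or robust variances, and 1 with array weights, the mean of probe sets or no trend. With the ID8 covariate the counts were 11 for C against B, 15 for D against B and 6 for D against C, and D against B had 4 with no trend. D against C, 0 as reported, had 4 with array weights, 2 with the mean of probe sets, 2 with robust variances and 1 with no target term. Among single values, Fads2 between targets was -0.0085 with the ID8 covariate and ran from -0.0211 to 0.125 with mice left out. Differences changed sign with an array or mouse left out in Scap in A (-0.002 to 0.0319), Mvd in B (-0.131 to 0.547), Fdps in B (-0.426 to 0.481), Fdft1 in C (-0.0237 to 0.509) and Nsdhl in C (-0.0194 to 0.413), the last 4 without mouse A. In all, 1600 of the single values kept direction and side of the threshold, 147 lost the call, 9 gained it and 7 turned. Causes were not tested. Fewer arrays were used where some were left out, and counts both rose and fell there.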

Other observations

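Other genes of lipid metabolism were read from a list of 30, of which 19 had a probe set with a single symbol and 16 were tested. By limma's F test 6 of 16 differed between mice (29.3% of all genes). Against the mean of the others, 4 were lower in mouse A (12.7% of all genes) and 2 higher (18.1% of all genes), and 0 of 16 passed between the targets. Lpin1, a phosphatidate phosphatase that makes diacylglycerol, had 9.21 in mouse A after PD-L1-overexpressing targets and 9.20 after PD-L1-depleted ones, and 9.50 to 9.60 in the other mice. It was lower in mouse A by -0.35 (SE 0.0448, limma adjusted p = 0.000464), without overlap. Lpcat3, which puts polyunsaturated fatty acids into phospholipids, was lower in mouse A by -0.16 (limma adjusted p = 0.0288) and higher in mouse D by 0.27 (limma adjusted p = 0.00858). Elovl5, an elongase of polyunsaturated fatty acids, was lower in mouse A by -0.17 (limma adjusted p = 0.00534). Erlin1, a protein of the endoplasmic reticulum that takes part in the turnover of HMG-CoA reductase, was lower in mouse C by -0.27 (limma adjusted p = 0.0161) and was not called in mouse A (0.05).

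Me1, the malic enzyme that supplies NADPH for fatty acid synthesis, was chosen after its values were seen. Its difference between targets was 0.65, -0.61, 0.53 and 0.58 for mice A to D, the same signs as those of Fads1 and of the ID8 marker mean. The mean over mice was 0.29 (SE 0.177, limma adjusted p = 0.9995, unadjusted p = 0.140).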
